A study of Mus musculus with 9 samples.

Results

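The endoplasmic reticulum (ER) stress genes described here are 36 named genes of the unfolded protein response and ER protein folding, measured in sorted macrophages of the mouse colon. A gene of the list counted if its normalized count was at least 10 in at least 3 of the 9 libraries, and all 36 listed genes passed, out of 14404 genes that passed among 42454 in the table. By role, 16 are ER chaperones and folding enzymes, 6 are stress sensors and transcription factors, 8 belong to ER-associated degradation or the translocon, and 6 are integrated stress response targets or subunits of the eIF2alpha phosphatase.

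RNA was sequenced from Ly6C low, MHC class II positive lamina propria macrophages of 6-week-old mice, with 3 libraries from p47phox-/- mice, 3 from gp91phox-/- mice and 3 from wild-type (WT) mice. No treatment is named. p47phox (gene Ncf1) and gp91phox (gene Cybb) are subunits of the phagocyte NADPH oxidase, which makes superoxide, and the study's title names reactive oxygen species and intestinal macrophage development as its subject. The labels say that the alleles are -/- and give no strain or cell type restriction, and they do not say whether each library came from its own animal.

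The libraries held 31141107 to 52797368 reads on genes. All 18 macrophage marker genes were detected, and their summed normalized count was 1610850 to 2362430 in p47phox-/- libraries, 1822010 to 2250810 in gp91phox-/- libraries and 1599810 to 2095750 in WT libraries. Of this sum Cd74 alone gave 504208 to 808948, and single markers differed. Cx3cr1 read 598 to 5056 in p47phox-/-, 14746 to 24878 in gp91phox-/- and 4060 to 5542 in WT libraries. Cd163 read 15411 to 26969, 15693 to 18867 and 10011 to 11865 in the same order. In limma 1 of the 18 was called higher in each knockout against WT. Between the knockouts 3 were called higher and 1 lower in gp91phox-/-. Ncf1 read 2718, 3733 and 3133 normalized counts in p47phox-/- libraries and 8990 to 13617 in the other 6. Cybb is listed at 0 in every library, WT included, so the loss of gp91phox cannot be read from it. By principal components, p47phox-/- replicates 2 and 3 were set off from the rest and from each other, and both had reads on fewer genes (14323 and 14268, against 15825 to 18760 in the other 7 libraries), so results that rest on them are also given without them. The gp91phox-/- libraries had fewer B and plasma cell transcripts. The summed B cell markers were 3347 to 3964 normalized counts in gp91phox-/-, 16202 to 25410 in p47phox-/- and 17661 to 30241 in WT libraries, and the defining gene Pax5 read 0 to 10.7 in gp91phox-/- libraries, against 1078 to 2303 in WT libraries.

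The unfolded protein response adjusts the folding capacity of the ER to its load of unfolded protein. Membrane sensors start it: IRE1alpha (Ern1), which splices the Xbp1 mRNA, PERK (Eif2ak3), which phosphorylates eIF2alpha and so favours translation of ATF4, and ATF6, which is cut in the Golgi to release a transcription factor. ATF6 and spliced XBP1 raise chaperones and degradation factors, while ATF4 raises amino acid and redox genes and, through CHOP (Ddit3), the phosphatase subunit Ppp1r15a. Secretory cells such as plasma cells carry a large ER and high levels of many of these transcripts. Splicing of Xbp1 and cleavage of ATF6 cannot be read from counts per gene.

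Many of these genes share a promoter element, the ER stress response element, which pairs a CCAAT box, read by NF-Y, with a CCACG, read by ATF6. RefSeq promoters (GRCm38.p6, 250 bases before to 50 after the start of the gene) were matched by symbol for 30 of the 36 genes. The element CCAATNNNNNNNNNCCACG, searched on both strands, was present in 8 of these 30 genes (26.7%), against 0.137% of the 27025 genes with a promoter in the RefSeq table. The second form, ATTGGNCCACG, was present in 2 of 30 (6.67%), against 0.0444% of the 27025 genes. The CEBP-ATF element TTGCATCA was in 2 of 30 (6.67%, Chac1 and Herpud1), against 1.03%, and the XBP1 core TGACGTGG was in 0 of 30, against 0.714%. The windows below show the first element with the fixed letters of each site in capitals, because the chaperones that differed between the genotypes include several of these genes. Each runs 5′ to 3′ on the strand of its gene, and CGTGG followed by ATTGG is the same element read on the opposite strand. A match is a match of letters, not a binding site shown to be used.
Calr (chr8:84847067-84847101, minus strand): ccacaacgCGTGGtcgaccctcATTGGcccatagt
Canx (chr11:50325792-50325826, minus strand): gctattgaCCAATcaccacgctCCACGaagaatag
Creld2 (chr15:88819512-88819546, plus strand): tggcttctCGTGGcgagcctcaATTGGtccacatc
Dnajc3 (chr14:118937819-118937853, plus strand): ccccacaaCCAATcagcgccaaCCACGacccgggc
Hsp90b1 (chr10:86705525-86705559, minus strand): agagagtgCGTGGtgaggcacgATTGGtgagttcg
Hsp90b1 (chr10:86705630-86705664, minus strand): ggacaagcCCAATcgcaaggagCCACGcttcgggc
Hspa5 (chr2:34772017-34772051, plus strand): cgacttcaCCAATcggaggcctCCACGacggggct
Pdia6 (chr12:17266483-17266517, plus strand): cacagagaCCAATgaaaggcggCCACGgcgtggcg
Syvn1 (chr19:6046524-6046558, plus strand): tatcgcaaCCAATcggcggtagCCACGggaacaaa

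The second form was found in Dnajb11, just inside the transcribed sequence, and in Herpud1, upstream of it.
Dnajb11 (chr16:22857844-22857870, plus strand): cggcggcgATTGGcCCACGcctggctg
Herpud1 (chr8:94386369-94386395, plus strand): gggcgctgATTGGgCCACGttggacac

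The 250 bases before the start are shown for 3 promoters, those of Hspa5, the archetypal ER stress target, and of Creld2 and Pdia6, both of which differed between the knockouts, with the fixed letters of the element in capitals.
Hspa5 (chr2:34771840-34772089, plus strand): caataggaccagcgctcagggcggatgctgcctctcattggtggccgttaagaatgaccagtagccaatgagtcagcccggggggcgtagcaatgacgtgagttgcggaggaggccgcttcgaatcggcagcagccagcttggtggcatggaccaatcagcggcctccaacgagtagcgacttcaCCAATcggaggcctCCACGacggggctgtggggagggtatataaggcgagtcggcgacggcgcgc
Creld2 (chr15:88819396-88819645, plus strand): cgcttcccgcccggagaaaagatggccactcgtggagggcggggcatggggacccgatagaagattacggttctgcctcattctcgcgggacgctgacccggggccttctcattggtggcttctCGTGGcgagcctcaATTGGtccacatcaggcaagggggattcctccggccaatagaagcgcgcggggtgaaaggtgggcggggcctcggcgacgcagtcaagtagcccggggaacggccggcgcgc
Pdia6 (chr12:17266339-17266588, plus strand): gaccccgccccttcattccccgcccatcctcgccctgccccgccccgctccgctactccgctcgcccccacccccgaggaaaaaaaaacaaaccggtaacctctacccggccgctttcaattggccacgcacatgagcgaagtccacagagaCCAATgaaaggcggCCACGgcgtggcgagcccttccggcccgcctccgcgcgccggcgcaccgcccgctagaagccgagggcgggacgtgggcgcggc

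In WT macrophages, Hspa5, which encodes the ER Hsp70 chaperone BiP, had the highest level per length of the 36 genes, at 18449, 18794 and 21740 normalized counts per kb of exon. Calr (calreticulin, a lectin chaperone) had the next highest level, at 14776 to 16309 per kb in WT libraries, and Hsp90b1 (GRP94, the ER Hsp90) followed at 10583 to 11699 per kb, so the WT libraries of these 3 genes did not overlap. Pdia3 came next at 6479 to 7702 per kb. The lowest levels in WT were those of Trib3, at a mean of 18.2 per kb, Chac1, at 25.6 per kb, and Asns, at 31.6 per kb.

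**Figure D1:**
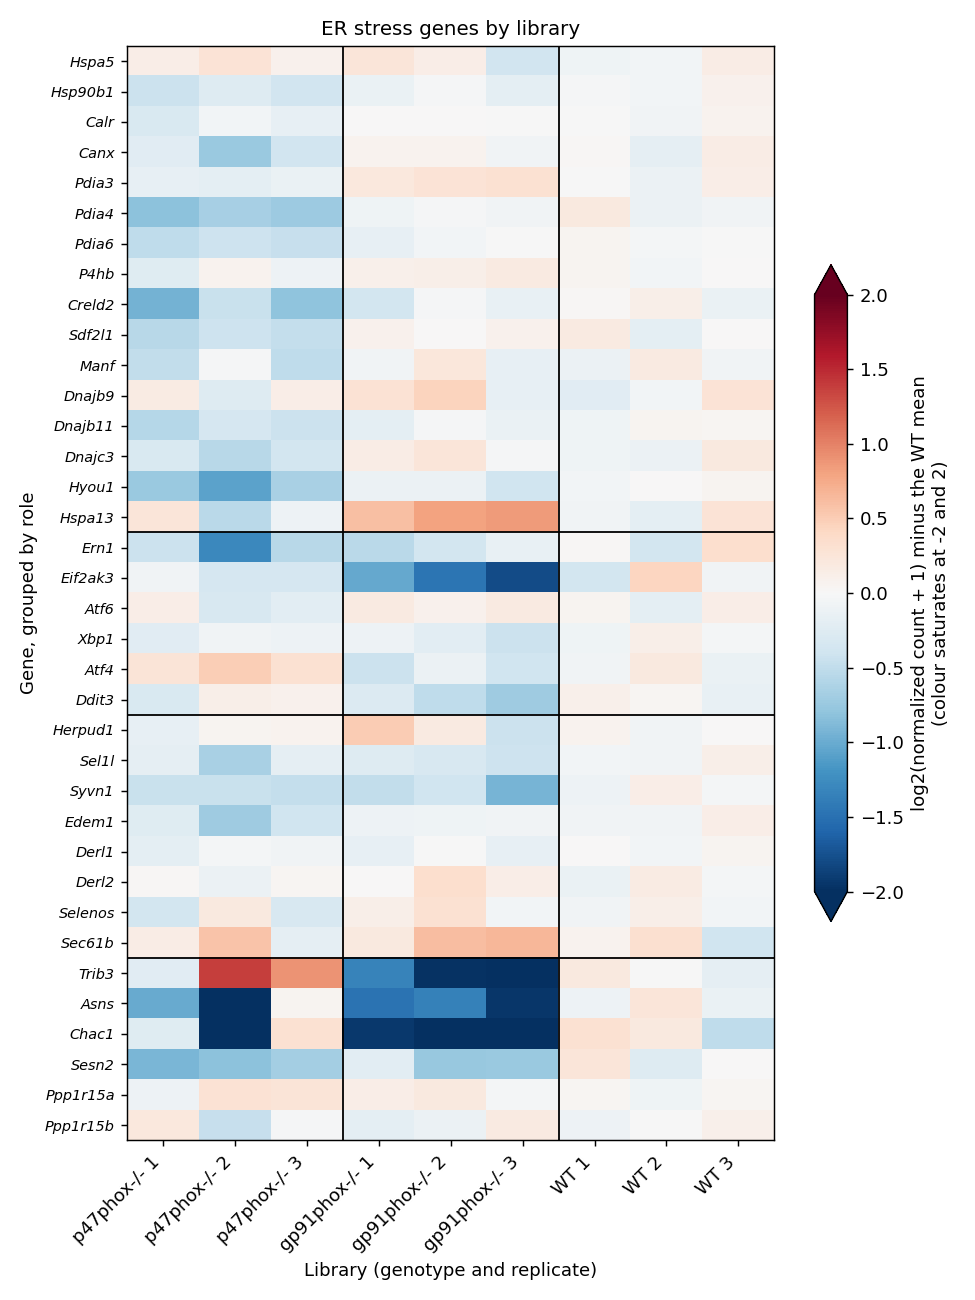
Each row is 1 of the 36 ER stress genes, grouped by role, and each column is 1 library, with p47phox-/- on the left, gp91phox-/- in the middle and WT on the right; colour is log2(normalized count + 1) minus the mean of the 3 WT libraries. The p47phox-/- columns are blue across most of the chaperone block, while in the gp91phox-/- columns the deepest blue rows are Eif2ak3, Trib3, Asns and Chac1.

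Of the 16 ER chaperones and folding enzymes, 3 fell in p47phox-/- relative to WT macrophages, and most of the others had lower values that did not pass the test. The 3 called lower in limma were the disulfide isomerase Pdia4, the Hsp70-related chaperone Hyou1 (GRP170) and the ER protein Creld2, and these were also the only calls among all 36 genes in that comparison (3 lower, a share of 8.33%, where 1.12% of all 14404 genes were called, 0.5% lower and 0.625% higher). Of the 16, 14 had a negative fold change, and in 10 all p47phox-/- libraries lay below all WT libraries, where 8.49% of all genes did so. Over the 36 genes, 15 lay below WT in all p47phox-/- libraries and 1, Atf4, lay above (9.25% of all genes). The median log2 fold change of the 16 was -0.38, beside -0.21 for the 36 genes and -0.02 for all genes.

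Pdia4 read 3111, 3494 and 3338 normalized counts in p47phox-/- libraries, against 6305, 5058 and 5260 in WT libraries. Every p47phox-/- library was below every WT library, and the fold change was 1.67-fold lower in p47phox-/- (log2 fold change -0.74, SE 0.12, limma adjusted p = 0.0149). Pdia4 carries thioredoxin-like domains and forms disulfide bonds in secretory proteins. Hyou1, which acts as a nucleotide exchange factor for BiP, read 5813, 4668 and 6223 in p47phox-/- libraries and 9422, 9795 and 10106 in WT libraries. Its groups were also separate, with a 1.77-fold lower level in p47phox-/- (log2 fold change -0.82, SE 0.14, limma adjusted p = 0.0150). Creld2 read 1303, 1830 and 1423 normalized counts in p47phox-/- libraries and 2530, 2701 and 2276 in WT libraries. It was 1.66-fold lower in p47phox-/-, with the highest p47phox-/- library below the lowest WT library (log2 fold change -0.73, SE 0.16, limma adjusted p = 0.0468).

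Other chaperones had smaller differences in that comparison that did not pass the threshold. Pdia6, a disulfide isomerase, averaged 9043 ± 284 normalized counts in p47phox-/- and 12442 ± 411 in WT libraries (SD, n = 3 each; log2 fold change -0.46, limma adjusted p = 0.0709). Sdf2l1, a partner of ER DnaJ proteins, averaged 2369 ± 119 in p47phox-/- and 3328 ± 414 in WT libraries (limma adjusted p = 0.0895). Dnajb11, a co-chaperone of BiP, averaged 4477 ± 364 in p47phox-/- and 6091 ± 295 in WT libraries (limma adjusted p = 0.0924). In each of these 3 genes all p47phox-/- libraries lay below all WT libraries, as they also did in Hsp90b1, Canx, Pdia3 and Dnajc3. The 2 chaperones with a positive fold change were Hspa5 and Dnajb9. Hspa5 read 90455, 100589 and 88279 in p47phox-/- libraries and 78021, 79481 and 91937 in WT libraries, so the most abundant ER chaperone overlapped between the genotypes (log2 fold change 0.16, 95% interval -0.24 to 0.57, limma adjusted p = 0.715). Dnajb9, a DnaJ protein that binds IRE1alpha, read 4781, 3557 and 4651 in p47phox-/- libraries and 3624, 4113 and 5163 in WT libraries (log2 fold change 0.01).

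Leaving out libraries weakened the calls while the direction stayed. All 3 calls were lost without WT replicate 3 (limma adjusted p = 0.0822 for Hyou1), and 1 of the 3, Hyou1, remained without WT replicate 1 or p47phox-/- replicate 3 (Pdia4 at 0.0510 to 0.0640 over these 3 settings). With p47phox-/- replicates 2 and 3 both left out, the p47phox-/- group is 1 library and the spread comes from the gp91phox-/- and WT libraries, so that the lone library is assumed to vary as they do. Under this setting the limma adjusted p was 0.133 for Pdia4, 0.172 for Hyou1 and 0.121 for Creld2, while the median over the 16 chaperones stayed at -0.37 with 13 of 16 negative. Creld2 lost its call without any 1 of 7 of the 9 libraries (limma adjusted p = 0.0646 to 0.147), the exceptions being p47phox-/- replicate 2 and gp91phox-/- replicate 1.

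Fewer cells with a large ER and less RNA per cell cannot be told apart in these bulk libraries. Summed plasma cell markers (19 genes, Xbp1 left out because it is one of the 36) were 164783, 70576 and 125148 normalized counts in p47phox-/- libraries and 140344, 317003 and 116169 in WT libraries, which overlap. Of these sums Igha alone gave 21649 to 82375 in p47phox-/- libraries and 56997 to 185267 in WT libraries. By gene, with Xbp1 included, 16 of 20 plasma cell markers had a negative fold change and 4 a positive one. Their median log2 fold change was -0.38, beside -0.38 for the 16 chaperones, and 0 were called. The mean log2 level of the 16 chaperones was 12.87, 12.88 and 12.89 in p47phox-/- libraries and 13.22, 13.18 and 13.30 in WT libraries, each in the order of replicates 1 to 3. Fibroblast and smooth muscle markers moved with the genotype: 14 of 14 had a positive fold change in p47phox-/- versus WT and 3 were called higher, with sums of 21468, 13932 and 18121 normalized counts in p47phox-/- libraries and 11215, 8449 and 8125 in WT libraries. The part of plasma cell, fibroblast and smooth muscle transcripts in the chaperone result was not tested.

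**Figure D2:**
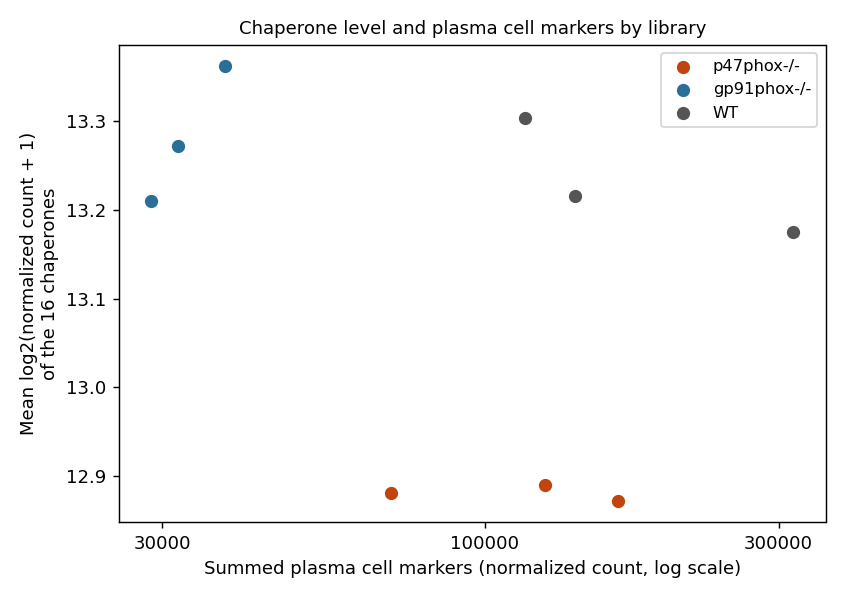
Each point is 1 library; the horizontal axis is the summed normalized count of 19 plasma cell markers on a log scale and the vertical axis is the mean log2(normalized count + 1) of the 16 chaperones. The p47phox-/- libraries lie at 12.87 to 12.89 over plasma cell sums of 70576 to 164783, the gp91phox-/- libraries at 13.21 to 13.36 with sums of 28756 to 37839, and the WT libraries at 13.18 to 13.30 with sums of 116169 to 317003.

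Set directly against p47phox-/-, gp91phox-/- macrophages had higher transcript levels of 8 of the chaperones. In limma 8 of the 16 chaperones were called higher and the other 8 were not called, while over all 14404 genes 9.93% were called, 3.97% higher and 5.96% lower. The fold change was positive in 15 of the 16, with a median log2 value of 0.41 (0.02 over all genes), and in 13 all gp91phox-/- libraries lay above all p47phox-/- libraries, where 13.6% of all genes did. The 3 of the 36 whose gp91phox-/- libraries all lay below the p47phox-/- libraries, as in 17.3% of all genes, were Eif2ak3, Atf4 and Trib3. This comparison is also the test of whether the 2 knockouts differ in their change from WT, with which it shares libraries. Markers of other cells moved with it. In gp91phox-/- 15 of 15 B cell markers, 10 of 20 plasma cell markers and 6 of 11 dendritic cell markers were called lower than in p47phox-/-. So were 3 of 10 tested T cell markers and 3 of 14 fibroblast and smooth muscle markers. Of the plasma cell markers, 1 was called higher. Epithelial markers went up with the chaperones: 17 of 18 fold changes were positive (median log2 value 0.98), with 3 called higher and 0 lower. The summed dendritic cell markers were 2634 to 3179 normalized counts in gp91phox-/- libraries and 6595 to 8512 in p47phox-/- libraries, and the summed fibroblast and smooth muscle markers were 11535 to 13806 in gp91phox-/- libraries and 13932 to 21468 in p47phox-/- libraries. The part of all these cells in the differences between the knockouts was not tested.

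Pdia4 had the smallest adjusted p of the 8. It read 5216, 5422 and 5227 normalized counts in gp91phox-/- libraries, against 3111, 3494 and 3338 in p47phox-/- libraries, 1.60-fold higher with no overlap (log2 fold change 0.68, SE 0.12, limma adjusted p = 0.00432). Hyou1 read 9018, 8965 and 7397 in gp91phox-/- libraries, against 5813, 4668 and 6223 in p47phox-/- libraries. It was 1.52-fold higher in gp91phox-/- and the groups did not overlap (log2 fold change 0.61, SE 0.14, limma adjusted p = 0.0161). Sdf2l1 read 3500, 3327 and 3506 in gp91phox-/- libraries, against 2243, 2480 and 2383 in p47phox-/- libraries. That is 1.45-fold higher, again without overlap (log2 fold change 0.54, SE 0.12, limma adjusted p = 0.0171).

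Dnajc3 (P58IPK, a BiP co-chaperone also known as an inhibitor of PERK) read 6333, 6759 and 5635 in gp91phox-/- libraries and 4609, 3894 and 4438 in p47phox-/- libraries. All gp91phox-/- libraries were higher, by 1.45-fold in the fit (log2 fold change 0.53, SE 0.13, limma adjusted p = 0.0246). Pdia3 (ERp57, the disulfide isomerase that works with calreticulin and calnexin) read 25584, 26829 and 27416 in gp91phox-/- libraries and 19758, 19181 and 20044 in p47phox-/- libraries. It was 1.35-fold higher with groups apart (log2 fold change 0.44, SE 0.12, limma adjusted p = 0.0406). Creld2 read 1926, 2454 and 2240 in gp91phox-/- libraries and 1303, 1830 and 1423 in p47phox-/- libraries, and here the lowest gp91phox-/- library was only just above the highest p47phox-/- library (log2 fold change 0.55, SE 0.16, limma adjusted p = 0.0447). Pdia6 read 11130, 11975 and 12304 in gp91phox-/- libraries and 8789, 9349 and 8991 in p47phox-/- libraries. The groups were apart and the difference passed narrowly (log2 fold change 0.38, SE 0.11, limma adjusted p = 0.0458).

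Hspa13 (STCH, an Hsp70 family member without the substrate-binding part) was the chaperone with the greatest fold change between the knockouts. It read 1525, 1749 and 1811 normalized counts in gp91phox-/- libraries, against 1192, 689 and 933 in p47phox-/- libraries and 955, 877 and 1212 in WT libraries. All gp91phox-/- libraries lay above all others, and the level was 1.85-fold that of p47phox-/- (log2 fold change 0.88, SE 0.20, limma adjusted p = 0.0159) and 1.68-fold that of WT (log2 fold change 0.75, SE 0.20, limma adjusted p = 0.0425). The call against WT was lost without any 1 of p47phox-/- replicate 3, gp91phox-/- replicates 1, 2 and 3, and WT replicates 1 and 2 (limma adjusted p = 0.0570 to 0.145).

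Among the 8 chaperones called between the knockouts, Pdia4 kept its call without any 1 library. With p47phox-/- replicates 2 and 3 both left out, which leaves 1 p47phox-/- library and takes the spread from the other genotypes, the log2 fold change was 0.77 for Pdia4 (limma adjusted p = 0.0450), 0.75 for Creld2 (0.0649), 0.62 for Sdf2l1 (0.0941), 0.42 for Pdia6 (0.180) and 0.50 for Hspa13 (0.259), and Pdia4 was the 1 gene of the 36 that was called. Pdia3 and Pdia6 each lost the call without any 1 of 8 of the 9 libraries, the exception being WT replicate 2 for Pdia3 and p47phox-/- replicate 2 for Pdia6 (limma adjusted p = 0.0534 to 0.129 and 0.0501 to 0.153), and Creld2 lost it without any 1 of 7, the exceptions being p47phox-/- replicate 2 and gp91phox-/- replicate 1 (0.0545 to 0.169). Sdf2l1 lost it without any gp91phox-/- replicate (0.0510 to 0.0645), Dnajc3 without p47phox-/- replicate 2 or 3 or gp91phox-/- replicate 1 or 2 (0.0558 to 0.106), Hyou1 without gp91phox-/- replicate 1 or 2 (0.0575 and 0.0707), and Hspa13 without gp91phox-/- replicate 2 or 3 (0.0605 and 0.0611).

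Against WT, the chaperones of gp91phox-/- macrophages had fold changes in both directions. Hspa13 was the 1 chaperone called of 16, where 7.05% of all genes were called in that comparison, 2.53% higher and 4.53% lower, and 8 fold changes were positive and 8 negative with a median of 0.00 on the log2 scale. In 3 of the 36 genes, all of them chaperones, the gp91phox-/- libraries all lay above WT (15.1% of all genes), and in 9 they all lay below (18.2% of all genes). Quantile normalization moved that median to -0.11, with 11 of 16 negative. The log2 fold changes ran from -0.21 for Hyou1 to 0.75 for Hspa13. The abundant chaperones were close to WT: Calr averaged 44684 ± 339 normalized counts in gp91phox-/- and 44562 ± 2235 in WT libraries, and Hsp90b1 averaged 41162 ± 2612 in gp91phox-/- and 44566 ± 2333 in WT libraries (SD, n = 3 each). Their 95% intervals on the log2 scale were -0.28 to 0.29 for Calr and -0.40 to 0.17 for Hsp90b1. In the same comparison 11 of the 20 plasma cell markers were called lower and 1 higher. Also called lower were 14 of 15 B cell markers, 4 of 11 dendritic cell markers and 2 of 10 tested T cell markers. Epithelial markers had a positive fold change in 17 of 18, with 1 called higher. Fibroblast and smooth muscle markers had one in 12 of 14, with 2 called higher. The sums over the 19 plasma cell markers other than Xbp1 were 31842, 37839 and 28756 in gp91phox-/- libraries, against 140344, 317003 and 116169 in WT libraries. What part these cells have in the chaperone levels was not tested.

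**Figure D3:**
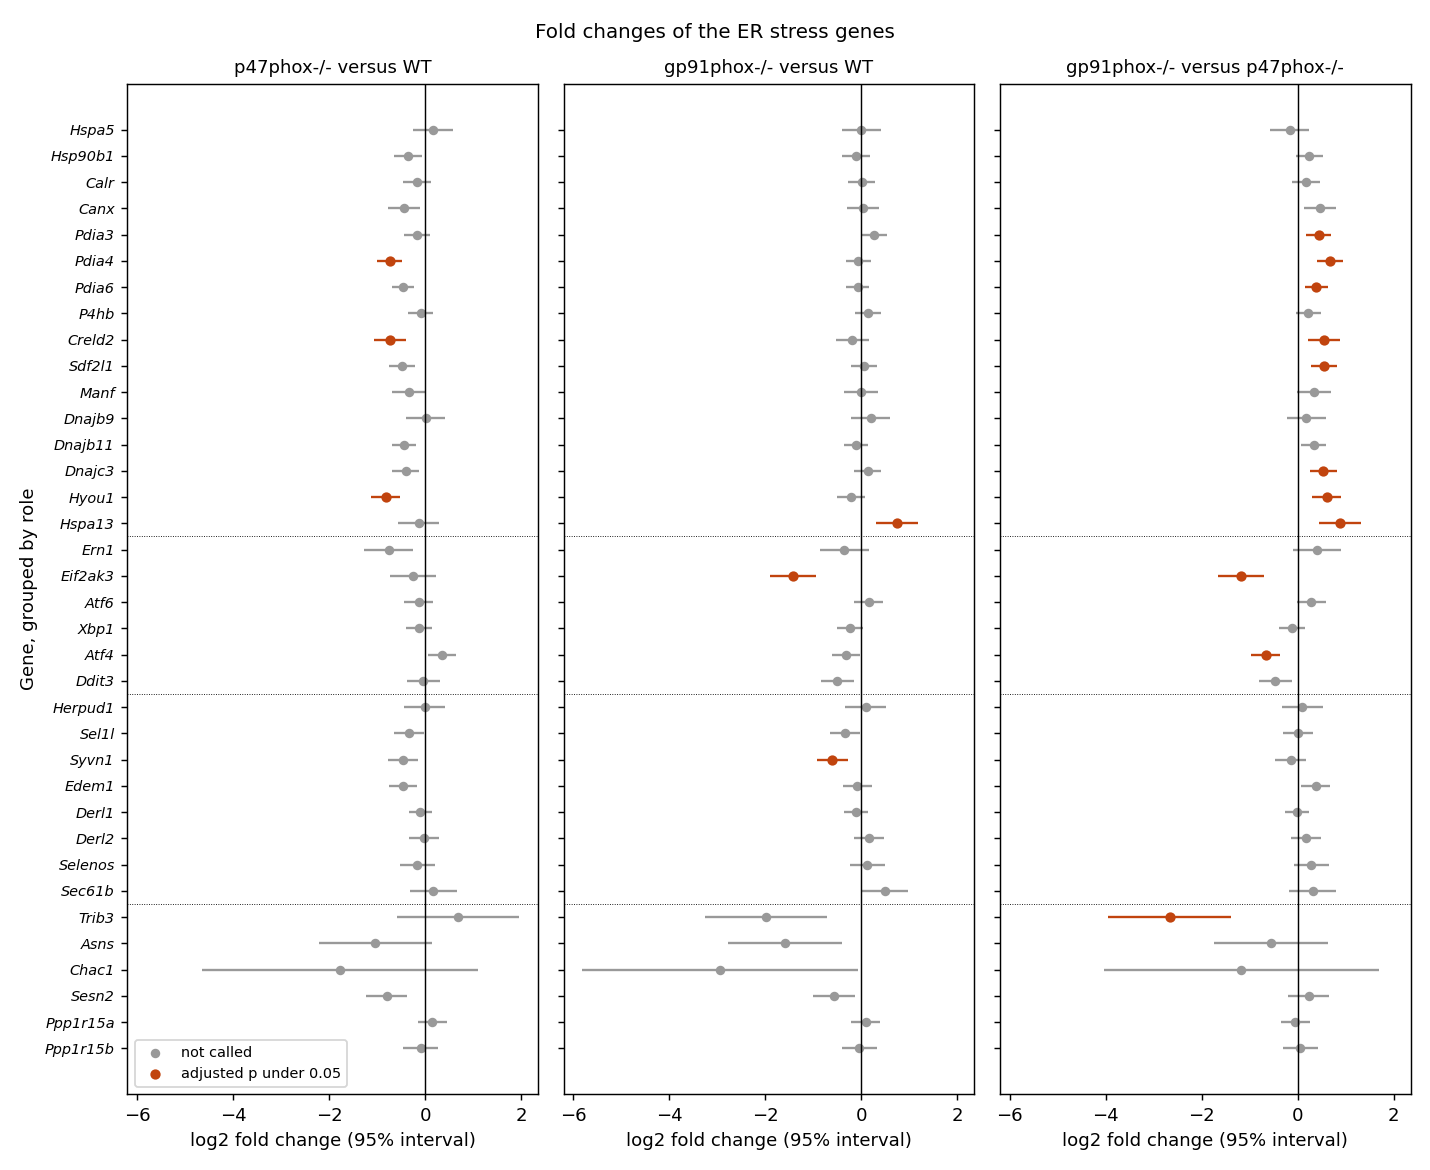
The 3 panels show, for each of the 36 genes grouped by role, the log2 fold change and its 95% interval in p47phox-/- versus WT, gp91phox-/- versus WT and gp91phox-/- versus p47phox-/-; orange points are genes with a limma adjusted p under 0.05. Orange points number 3 in the first panel, all lower chaperones, 3 in the second and 11 in the third, of which 8 are chaperones that are higher in gp91phox-/-.

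The 10 members with either promoter element and the 20 members without one were set side by side, as a description. In p47phox-/- versus WT, the 10 with an element had a median log2 fold change of -0.43 with 9 negative, and the 20 without one had -0.16 with 15 negative. Among the chaperones the medians were -0.43 for 8 with an element and -0.17 for 5 without one, and Pdia4, the called gene with the smallest adjusted p, has no match in its window. Hyou1, which had the most negative fold change of the 16 chaperones (-0.82), is left out, as are Hspa13 and Manf, because no promoter was matched for them. In gp91phox-/- versus p47phox-/- the chaperone medians were 0.36 with an element and 0.44 without.

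Among the sensors and transcription factors, the PERK gene Eif2ak3 was lower in gp91phox-/- macrophages than in both other genotypes. It read 1368, 1013 and 805 normalized counts in gp91phox-/- libraries, against 2644, 2196 and 2211 in p47phox-/- libraries and 2159, 3771 and 2653 in WT libraries. Every gp91phox-/- library was below every other library. The level was 2.68-fold lower than in WT (log2 fold change -1.42, SE 0.22, limma adjusted p = 0.00208) and 2.26-fold lower than in p47phox-/- (log2 fold change -1.17, SE 0.22, limma adjusted p = 0.00594). The call against WT held in all 23 alternatives run. The call against p47phox-/- held in 22 of 23 and was lost with p47phox-/- replicates 2 and 3 both left out (limma adjusted p = 0.0651). In p47phox-/- versus WT, Eif2ak3 had a log2 fold change of -0.25 (limma adjusted p = 0.625). Of the exon length of Eif2ak3 (chromosome 6, 70844484 to 70905241, plus strand), 8.05% overlaps another annotated gene, and whether counting used the strand is not stated in the labels.

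Atf4, the transcription factor translated when eIF2alpha is phosphorylated, differed between the knockouts. It read 6666, 8306 and 6818 normalized counts in gp91phox-/- libraries, against 10762, 12611 and 11178 in p47phox-/- libraries. The groups did not overlap, and the level was 1.59-fold lower in gp91phox-/- (log2 fold change -0.67, SE 0.14, limma adjusted p = 0.00941). The WT libraries, at 8619, 10285 and 8240, lay between, with all p47phox-/- libraries above them and gp91phox-/- replicate 2 just inside their range, and neither knockout was called against WT (log2 fold change 0.35 and limma adjusted p = 0.253 for p47phox-/-, -0.32 and 0.200 for gp91phox-/-). With p47phox-/- replicates 2 and 3 both left out, the difference between the knockouts was not called (limma adjusted p = 0.156). Protein from Atf4 depends on translation, which was not measured.

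The other 4 genes of the group were not called in any of the 3 comparisons. Ern1 (IRE1alpha) read 2242, 1238 and 2071 in p47phox-/- libraries, 2093, 2346 and 2740 in gp91phox-/- libraries and 3097, 2347 and 3844 in WT libraries. Its p47phox-/- libraries all lay below its WT libraries (log2 fold change -0.76, limma adjusted p = 0.143), and DESeq2 called that difference. Atf6 read 5036, 3704 and 3964 in p47phox-/- libraries, 5225, 4902 and 5234 in gp91phox-/- libraries and 4766, 4046 and 5078 in WT libraries, so the genotypes overlapped (95% interval of the log2 fold change -0.44 to 0.17 for p47phox-/- versus WT and -0.16 to 0.46 for gp91phox-/- versus WT). Xbp1 read 6489, 7257 and 7077 in p47phox-/- libraries, 7087, 6585 and 5639 in gp91phox-/- libraries and 7142, 8249 and 7399 in WT libraries. Its gp91phox-/- libraries all lay below WT, by a log2 fold change of -0.24 (limma adjusted p = 0.291), and Xbp1 is also a plasma cell marker. Ddit3 (CHOP, a pro-apoptotic factor downstream of ATF4) read 1392, 1852 and 1823 in p47phox-/- libraries, 1414, 1202 and 1049 in gp91phox-/- libraries and 1846, 1767 and 1548 in WT libraries. Its gp91phox-/- libraries lay below WT without passing the threshold (log2 fold change -0.50, limma adjusted p = 0.0872). Without p47phox-/- replicate 1, Ddit3 was called lower in gp91phox-/- than in p47phox-/- (limma adjusted p = 0.0374).

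As a group the 6 sensors and factors had a median log2 fold change of -0.13 in p47phox-/- versus WT, -0.33 in gp91phox-/- versus WT and -0.29 in gp91phox-/- versus p47phox-/-. In the first of these limma called 0 of the 6, with 2 at an unadjusted p under 0.05, and edgeR called 0 and DESeq2 1.

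**Figure D4:**
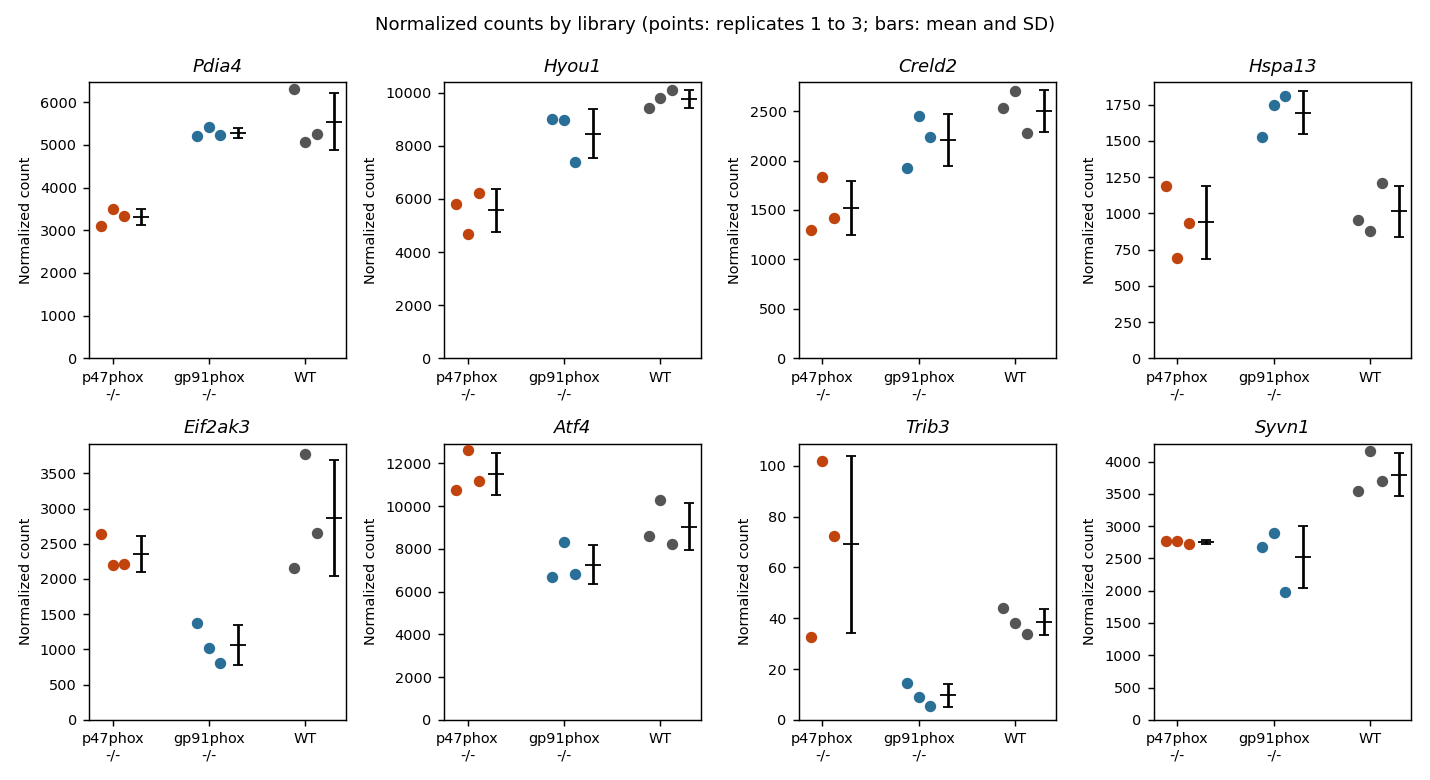
Normalized counts of 8 ER stress genes in each library, with p47phox-/-, gp91phox-/- and WT from left to right; points are replicates and bars are the mean and SD of 3 libraries, on axes that start at 0. Pdia4, Hyou1 and Creld2 sit lowest in p47phox-/-, Hspa13 sits highest in gp91phox-/- at 1525 to 1811, and Eif2ak3 and Trib3 sit lowest in gp91phox-/- at 805 to 1368 and 5.37 to 14.6.

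Of the 8 genes for ER-associated degradation and the translocon, the 1 called was Syvn1, which encodes HRD1, the ubiquitin ligase that marks misfolded ER proteins for degradation. Syvn1 read 2685, 2891 and 1983 normalized counts in gp91phox-/- libraries, against 3538, 4169 and 3694 in WT libraries. The groups were separate and the level was 1.52-fold lower in gp91phox-/- (log2 fold change -0.61, SE 0.15, limma adjusted p = 0.0279). p47phox-/- libraries also lay below WT, at 2770, 2770 and 2726, with a log2 fold change of -0.46 that was not called (limma adjusted p = 0.162), and the direct comparison gave -0.15 for gp91phox-/- versus p47phox-/- (limma adjusted p = 0.567). The call was lost without gp91phox-/- replicate 3 or without any WT replicate (limma adjusted p = 0.0583 to 0.113).

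Sel1l, the adaptor that holds HRD1, followed a like pattern of values without being called. It read 4991, 3636 and 5036 in p47phox-/- libraries, 4734, 4560 and 4238 in gp91phox-/- libraries and 5464, 5423 and 6175 in WT libraries, so both knockouts lay below WT, with log2 fold changes of -0.33 in each (limma adjusted p = 0.299 for p47phox-/- and 0.196 for gp91phox-/-). Both comparisons use the same WT libraries. Edem1, a lectin that passes misfolded glycoproteins to degradation, averaged 9113 ± 1460 in p47phox-/-, 11699 ± 174 in gp91phox-/- and 12425 ± 1068 in WT libraries (SD, n = 3 each). It was not called by limma, with an adjusted p of 0.137 for p47phox-/- versus WT and 0.107 for gp91phox-/- versus p47phox-/-, and DESeq2 called both.

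Herpud1, Derl1, Derl2, Selenos and Sec61b overlapped between the genotypes, with log2 fold changes between -0.16 and 0.49 against WT. The widest spread was in Herpud1, a scaffold of the degradation complex, which read 15331, 12240 and 8002 in gp91phox-/- libraries, against 11276, 10237 and 10876 in WT libraries. Over the 8 genes the median log2 fold change was -0.13 in p47phox-/- versus WT, 0.00 in gp91phox-/- versus WT and 0.14 in gp91phox-/- versus p47phox-/-. Limma called 0 of the 8 in p47phox-/- versus WT (3 at an unadjusted p under 0.05, 0 in edgeR and 1 in DESeq2) and 0 in gp91phox-/- versus p47phox-/- (1, 0 and 1 by the same measures).

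The low-abundance ATF4 targets Trib3, Asns and Chac1 had their lowest group means in gp91phox-/- macrophages, and the main limma fit called none of these 3 against WT. Each was called lower than in WT when only the genotypes compared were fitted, and with array weights. Over the alternatives run, Trib3 was called against WT in 6 of 22, Asns in 5 of 23 and Chac1 in 4 of 22. Trib3, a pseudokinase that feeds back on ATF4 and CHOP, read 14.6, 9.05 and 5.37 normalized counts in gp91phox-/- libraries, against 32.7, 102 and 72.4 in p47phox-/- libraries and 43.9, 38.2 and 33.8 in WT libraries. All gp91phox-/- libraries were below all others, resting on 16, 15 and 6 reads. It was called lower than in p47phox-/- (log2 fold change -2.67, SE 0.59, limma adjusted p = 0.0136) and not against WT (log2 fold change -1.98, SE 0.59, limma adjusted p = 0.0649), where leaving out p47phox-/- replicate 1 or 2, which changes the shared spread, brought it past the threshold. The call against p47phox-/- was lost without gp91phox-/- replicate 3 (limma adjusted p = 0.0548) and with p47phox-/- replicates 2 and 3 both left out (0.235).

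Asns, asparagine synthetase, read 30.0, 33.2 and 21.5 in gp91phox-/- libraries, 42.0, 18.5 and 89.6 in p47phox-/- libraries and 79.6, 102 and 77.7 in WT libraries. Its gp91phox-/- libraries lay below WT while p47phox-/- libraries spanned a wide range, and limma did not call it (log2 fold change -1.59, adjusted p = 0.105 for gp91phox-/- versus WT). Chac1, a glutathione-degrading enzyme, read 10.01, 6.64 and 0.895 in gp91phox-/- libraries, 34.4, 0 and 50.5 in p47phox-/- libraries and 50.5, 46.99 and 28.3 in WT libraries. Its gp91phox-/- libraries held 11, 11 and 1 reads, and the difference from WT was not called (log2 fold change -2.94, SE 1.32, limma adjusted p = 0.216). Without p47phox-/- replicate 2, the library in which Chac1 had no read, Chac1 and Asns were both called lower in gp91phox-/- than in WT (limma adjusted p = 0.0254 and 0.0292), and Chac1 was called lower than in p47phox-/- (0.0418).

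Sesn2, a stress-induced inhibitor of mTORC1, differed from Trib3, Asns and Chac1 in having its lowest mean in p47phox-/- libraries. It read 399, 426 and 470 in p47phox-/- libraries, 649, 442 and 447 in gp91phox-/- libraries and 889, 631 and 755 in WT libraries. The p47phox-/- libraries all lay below WT without a limma call (log2 fold change -0.80, adjusted p = 0.0830), and DESeq2 called that difference. The eIF2alpha phosphatase subunits, stress-induced Ppp1r15a (GADD34) and constitutive Ppp1r15b (CReP), overlapped in all 3 comparisons, with log2 fold changes from -0.09 to 0.15. Ppp1r15a averaged 17487 ± 2548 normalized counts in p47phox-/-, 16747 ± 1356 in gp91phox-/- and 15667 ± 799 in WT libraries (SD, n = 3 each).

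Against WT, limma called 0 of these 6 in either knockout. In p47phox-/- 1 had an unadjusted p under 0.05 (0 called in edgeR, 1 in DESeq2), and in gp91phox-/- 4 did (0 in edgeR, 2 in DESeq2). Their median log2 fold change was -0.45 in p47phox-/- versus WT, -1.08 in gp91phox-/- versus WT and -0.31 in gp91phox-/- versus p47phox-/-.

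Other genes of the same pathways were taken from 7 lists, of which 177 of 182 genes could be tested. In p47phox-/- versus WT, 3 of the 177 were lower (1.69%, beside 0.5% of all genes) and 1 higher (0.565%, beside 0.625%), and the median log2 fold change was -0.13. The 3 that fell are listed as integrated stress response targets: Ddit4 (REDD1, an mTORC1 inhibitor), Eprs (a tRNA synthetase) and Vegfa (a vascular growth factor). Ddit4 read 1381, 1581 and 1474 normalized counts in p47phox-/- libraries, against 3064, 3220 and 2341 in WT libraries. It was 1.93-fold lower with no overlap (log2 fold change -0.95, limma adjusted p = 0.00945). Eprs read 3975, 3264 and 3459 in p47phox-/- libraries, against 5826, 5682 and 6231 in WT libraries (log2 fold change -0.73, limma adjusted p = 0.0117), and Vegfa had a log2 fold change of -0.74 (limma adjusted p = 0.0401). Nck1, an adaptor protein that links to eIF2alpha phosphatase activity, rose, at 713, 677 and 801 in p47phox-/- libraries and 388, 324 and 478 in WT libraries (log2 fold change 0.89, limma adjusted p = 0.0429). Ddit4 kept its call without any 1 library, Eprs lost it without p47phox-/- replicate 3 or WT replicate 3, and Vegfa and Nck1 lost it without any 1 of 7 and 8 of the 9 libraries (Vegfa kept it without p47phox-/- replicate 2 or gp91phox-/- replicate 1, Nck1 without p47phox-/- replicate 2). With p47phox-/- replicates 2 and 3 both left out all 4 lost the call, with limma adjusted p = 0.120 (Ddit4) to 0.335 (Nck1).

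In gp91phox-/- versus WT, 10 of the 177 fell (5.65%) and 3 rose (1.69%), shares near those of all genes (4.53% lower and 2.53% higher). The greatest decreases were in Phgdh, the first enzyme of serine synthesis and an ATF4 target, in Bhlha15 (MIST1), a factor of secretory cells, and in Derl3, a degradation factor. Phgdh read 20.9, 18.7 and 14.3 normalized counts in gp91phox-/- libraries, 218, 310 and 218 in p47phox-/- libraries and 210, 515 and 230 in WT libraries. The gp91phox-/- libraries were far below the rest (log2 fold change -3.96, limma adjusted p = 5.2e-05 against WT). Bhlha15 had a log2 fold change of -3.64 (limma adjusted p = 0.0350) and Derl3 of -2.90 (0.01001). Derl3 and the disulfide isomerase Txndc5 (log2 fold change -0.72, limma adjusted p = 0.0444) are also on the plasma cell list, whose summed markers were lower in the same libraries. Bbc3 (PUMA, a pro-apoptotic factor) fell by 1.07 on the log2 scale (limma adjusted p = 0.00377) and the amino acid transporters Slc7a1 and Slc1a5 fell by 0.74 and 0.57. Vcp, the ATPase that extracts degradation substrates, fell by 0.48, the translocon channel Sec61a1 fell by 0.40, and Wfs1, an ER membrane protein, fell by 0.92. The 3 that rose were Nck1 (log2 fold change 0.95, limma adjusted p = 0.00902) and the ER redox proteins Selenof and Tmx1 (0.52 each). Phgdh and Bbc3 kept their calls against WT without any 1 library, Derl3 lost its call without WT replicate 2 and Nck1 without gp91phox-/- replicate 2, and the other 9 lost theirs in 4 to 7 of the 9 fits without 1 library (limma adjusted p up to 0.150), in each case among others without WT replicate 2 and without gp91phox-/- replicate 2 or 3.

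Between the knockouts, 13 of the 177 were higher in gp91phox-/- (7.34%, beside 3.97% of all genes) and 5 lower (2.82%, beside 5.96%), with a median log2 fold change of 0.05. The 30 other ER folding enzymes had 15 positive and 15 negative fold changes, with a median log2 value of 0.02, 4 called higher and 0 lower. The 24 cytosolic heat shock proteins, which are not ER genes, had 17 positive fold changes and a median of 0.34, beside 0.41 for the 16 chaperones. ER folding genes among those that rose were Ero1l, the oxidase that recharges disulfide isomerases, the thioredoxin-like Tmx3 and Tmx1, and Uggt1, the glycoprotein folding sensor. Ero1l read 1449, 1471 and 1964 normalized counts in gp91phox-/- libraries, against 977, 646 and 709 in p47phox-/- libraries and 1141, 1292 and 1395 in WT libraries. It was 2.11-fold higher in gp91phox-/- than in p47phox-/- (log2 fold change 1.07, limma adjusted p = 0.00337). Tmx3 had a log2 fold change of 1.06 (limma adjusted p = 0.0102), Tmx1 of 0.67 (0.00798) and Uggt1 of 0.51 (0.0269). The translocation genes Spcs3 (0.74), Ssr3 (0.60) and Tram1 (0.49) rose too, as did Creb3l2 (0.68), a relative of ATF6, and Chordc1 (1.06), a co-chaperone of cytosolic Hsp90. The cystine transporter gene Slc7a11 had the greatest increase named, 1.60 on the log2 scale, but its libraries overlapped (1221, 2363 and 4033 in gp91phox-/-, 1302, 428 and 750 in p47phox-/-; limma adjusted p = 0.0304). Phgdh (-3.71), Hspb8 (-2.20), a small cytosolic heat shock protein, Bbc3 (-0.98) and Gdf15 (-0.88), a stress cytokine, were lower in gp91phox-/-. Ero1l, Tmx3, Tmx1, Phgdh, Bbc3 and Chordc1 kept their calls without any 1 library, and Spcs3 lost its call only without gp91phox-/- replicate 2. Of the 9 fits without 1 library, Tram1 kept its call in 7 and Slc7a11, Gdf15 and Hspb8 each in 5. Uggt1 and Creb3l2 each kept theirs in 4, and Ssr3 in 3. With p47phox-/- replicates 2 and 3 both left out, again 1 p47phox-/- library with the spread of the other genotypes, 3 of the 177 were higher and 1 was lower. Tmx1, Chordc1 and Phgdh were among these, and Ero1l was not (limma adjusted p = 0.118).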

How the data were processed

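Normalized counts per gene, a signal that the authors obtained by dividing reads by size factors, were deposited for 9 libraries. Per the labels' protocols, an RNeasy Micro kit was used for RNA, sequencing was paired-end, base calls were converted with bcl2fastq 2.19, adapters were trimmed with Cutadapt, reads were aligned to mm10 with STAR 2.5.2b and featureCounts counted them. DESeq2 is named per the submitters' processing notes. The gene annotation and the strand counted are not given in the sources used here. Whole reads were recovered for 100% of values (tolerance 0.01), with size factors of 1.05 to 1.66.

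The rows that passed the filter, at least 10 in at least 3 libraries, were tested as log2(normalized count + 1) with limma 3.58.1 (R 4.3.3) in 1 fit of the 3 genotypes with a mean-variance trend, Benjamini-Hochberg adjustment over 14404 genes and a call at an adjusted p under 0.05. A fold change on this scale understates changes of low genes. The labels do not name separate animals, so p-values reflect only how these samples vary, some of which may be technical. The alternatives were the recovered reads tested with edgeR 4.0.16 and with DESeq2 1.42.0, other pseudocounts, filters and scalings, only the genotypes compared, no trend, array weights, the replicate number as a block, and libraries left out. Called members, the sensors and their factors are named with the value in every library, and of the pathway lists up to 4 called genes per list and comparison with the greatest absolute fold change. Members and lists were chosen with earlier results of these data known. The 8 genes plotted singly were chosen among those called. Gene positions and promoters are those of RefSeq on GRCm38.p6, and exon lengths and neighbouring genes those of GENCODE on GRCm38. The procedure was run on simulated counts with the same spread in every genotype and with changes greater than those of the called chaperones. In the data, libraries correlated at 0.885 to 0.926 within p47phox-/-, 0.977 to 0.980 within gp91phox-/- and 0.951 to 0.958 within WT. The simulation therefore does not measure how reliable the calls described here are. Genes of chromosome X were not examined as a group here, and the filter before testing did not use the chromosome.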

Additional observations from a re-analysis of the deposited data

Results flagged for a closer look

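Pdia3, the disulfide isomerase that works with calreticulin and calnexin, was the 1 ER stress gene that lay on opposite sides of WT in the 2 knockouts. Of all genes, 15.1% lay above WT in all gp91phox-/- libraries and 8.49% lay below WT in all p47phox-/- libraries. The share of all genes that did both was not counted. Its gp91phox-/- libraries (25584, 26829 and 27416 normalized counts) were all above, and its p47phox-/- libraries (19758, 19181 and 20044) all below, the WT libraries (21886, 20339 and 24178). Pdia3 was picked out by this separation together with its call between the knockouts, so neither is a separate test of it. The difference between the knockouts was 0.44 on the log2 scale (gp91phox-/- minus p47phox-/-, limma adjusted p = 0.0406). Neither knockout was called against WT, with log2 fold changes of 0.27 for gp91phox-/- (limma adjusted p = 0.221) and -0.17 for p47phox-/- (0.539). The call between the knockouts was lost in 14 of the 23 alternatives, and the reason for the difference was not tested.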

How the results depend on the processing

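The fold changes of the called members kept their sign in every alternative run, and over single genes 2347 gene and setting pairs stayed on the same side of the threshold, 97 lost a call and 34 gained one. Without the mean-variance trend the members called were 0 in p47phox-/- versus WT, 1 in gp91phox-/- versus WT and 4 in gp91phox-/- versus p47phox-/-, against 3, 3 and 11. With p47phox-/- replicates 2 and 3 both left out they were 0, 6 and 1. DESeq2 called 10, 5 and 14 in the 3 comparisons, and edgeR called 2, 3 and 11. Array weights gave 3, 10 and 12, a fit of only the 2 genotypes 2, 6 and 8, and quantile normalization 3, 3 and 8. Leaving out 1 library at a time gave 0 to 3, 1 to 6 and 4 to 10, with the lowest counts without WT replicate 3, without gp91phox-/- replicate 3 or WT replicate 1 or 2, and without gp91phox-/- replicate 2, and 6 in gp91phox-/- versus WT without p47phox-/- replicate 2. The adjusted p of Eif2ak3 against WT and of Pdia4 between the knockouts stayed under 0.05 in all 23 alternatives. The replicate block gave 3, 3 and 9. Deviations from the group mean correlated at -0.0398 to 0.0763 for same-numbered samples and at -0.0711 to 0.0536 for others. With 3 libraries per genotype this cannot settle whether the numbers pair the samples. Scalings moved the median of all genes by under 0.1 on the log2 scale. Trib3 and Chac1 rest on 1 to 16 reads in gp91phox-/- libraries, where depth limits the fold change.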

Other observations

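Eif2ak3 lies on chromosome 6 beyond the end of the immunoglobulin kappa locus, and these values were looked at after the fall of Eif2ak3 in gp91phox-/- had been seen. In the GENCODE annotation of GRCm38, the constant gene Igkc (70726435 to 70726966) ends 118 kb before Eif2ak3 begins. Igkc read 1262, 2618 and 889 normalized counts in gp91phox-/- libraries, 34955, 14214 and 24825 in p47phox-/- libraries and 26262, 68094 and 18443 in WT libraries (log2 fold change -4.48 in gp91phox-/- versus WT, limma adjusted p = 0.000142). Rpia, the ribose phosphate isomerase gene that lies between them at 52.3 kb before Eif2ak3, read 591, 559 and 604 in gp91phox-/- libraries, 629, 452 and 590 in p47phox-/- libraries and 584, 841 and 699 in WT libraries, and was not called (log2 fold change -0.26 in gp91phox-/- versus WT, limma adjusted p = 0.471). Whether B and plasma cell transcripts have a part in the Eif2ak3 difference was not tested.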
